A study of Mus musculus with 39 samples.

Results

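The lipins and other enzymes of glycerolipid synthesis were followed as 10 mouse genes (Lpin1, Lpin2, Lpin3, Gpam, Agpat2, Dgat1, Dgat2, Gpd1, Pck1 and Gk). They were picked by name for their roles in the pathway, with earlier results of these data known, and are 10 of 45232 genes counted. Poly-A RNA was sequenced from quadriceps, a mostly fast-twitch thigh muscle, and from epididymal white adipose tissue (eWAT), the fat pad beside the epididymis, of male C57BL/6J mice that were 22 weeks old. All mice ate chow after weaning. From week 6 to week 7 they ate either a juvenile high fat diet (HFD, with fat giving 45% of calories) or a control diet (CD, with fat giving 10%), then chow to week 10 and a high fat diet from there on, so the juvenile CD mice were also on a high fat diet when tissue was taken. Tissue was taken after a 16 h fast or from fed mice. The 8 groups were HFD fasted eWAT (5 libraries), HFD fed eWAT (4), CD fasted eWAT (6), CD fed eWAT (4), HFD fasted quadriceps (6), HFD fed quadriceps (4), CD fasted quadriceps (6) and CD fed quadriceps (4). Because the labels do not tie each library to its own mouse, the spread behind the p-values may be technical.

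Glycerolipid synthesis joins fatty acids to glycerol 3-phosphate. Gpd1 makes that backbone from a glycolytic intermediate, glycerol kinase (Gk) makes it from free glycerol, and cytosolic PEPCK (Pck1) starts its formation from pyruvate or lactate, a route known in fat as glyceroneogenesis. Gpam, the mitochondrial glycerol 3-phosphate acyltransferase, adds the first acyl chain and Agpat2 the second, giving phosphatidate. Lipins remove the phosphate to give diacylglycerol, and Dgat1 and Dgat2 add the last acyl chain to give triglyceride. Lpin1 is the main lipin of skeletal muscle and adipose tissue and also acts in the nucleus as a coregulator of transcription, and its loss underlies the fatty liver dystrophy (fld) mouse.

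The libraries held 6199586 to 14993394 counted reads. Quadriceps libraries had the fast-fibre transcripts of their label, with Acta1 at 32306 CPM (reads scaled to a common library size) or more. Of the 19 eWAT libraries, 13 had more than 1000 CPM of epididymal transcripts summed over 20 marker genes, and are called epididymis-rich here. The other 6 were CD fasted libraries 1, 2 and 3, HFD fasted library 4 and HFD fed libraries 2 and 3. CD fasted library 1 and HFD fasted library 4 had more than 10000 CPM of hepatocyte transcripts, and HFD fasted library 1 had 11634 CPM of testis transcripts. In bulk tissue fewer cells of a type and less RNA per cell cannot be told apart. Levels below are CPM on library sizes scaled by TMM over all 39 libraries, levels per kb divide by merged exonic length, and tests are edgeR quasi-likelihood fits over all genes of a tissue with Benjamini-Hochberg adjustment and a threshold of 0.05.

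In quadriceps Lpin1, Lpin2, Gpam and Dgat2 rose in fasted libraries and Gpd1 fell. Dgat1 and Pck1 also passed the test, but not when adipocyte transcripts were taken into account. By limma voom neither passed (adjusted p = 0.0553 for Dgat1 and 0.0970 for Pck1), and without the filter on low counts Dgat1 did not (edgeR adjusted p = 0.0654). Of the 9 members with enough counts to test, 6 rose, 1 fell and 2 did not pass. Over all 12213 genes tested, 37.6% passed, 19.2% higher and 18.4% lower. The members' median log2 fold change was 0.78, against -0.02 over all genes tested, and no test was made of that difference.

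Lpin1 (chromosome 12: 16535669 to 16610966, minus strand, GRCm38) was the most abundant lipin in muscle. In HFD mice, fasted quadriceps ranged from 757 to 1139 CPM with a median of 940 CPM, and the fed libraries had 426, 559, 588 and 439 CPM. In CD mice, fasted quadriceps ranged from 732 to 1054 CPM with a median of 860 CPM, and the fed libraries had 430.5, 427, 428 and 380 CPM. Every fasted library lay above every fed library, as for 519 of the 12213 genes tested (4.25%). The log2 fold change was 1.03 ± 0.09 (SE, 12 fasted and 8 fed libraries, edgeR adjusted p = 2.89e-10), 2.05-fold on the linear scale. Leaving out each library in turn gave 1.01 to 1.08.

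Lpin2 (chromosome 17: 71182560 to 71249817, plus strand), a lipin best known from liver, was scarce in muscle. It ranged from 6.31 to 16.0 CPM in fasted quadriceps (median 8.25 CPM) and from 1.84 to 5.71 CPM in fed quadriceps (median 3.5 CPM). The groups did not overlap, as for 4.25% of all genes tested. The log2 fold change was 1.39 ± 0.20 (SE, adjusted p = 2.73e-06, edgeR). By diet, Lpin2 and Lpin1 rose by 1.62 and 0.93 after HFD and by 1.15 and 1.13 after CD. The difference between the diets did not pass for Lpin2 (0.48 ± 0.40, log2, SE, edgeR unadjusted p = 0.239). Nor did it for Lpin1 (-0.20 ± 0.18, edgeR unadjusted p = 0.257). The response of Lpin2 was not tested against that of Lpin1. Per length, Lpin1 averaged 93.4 ± 13.0 CPM per kb in fasted quadriceps (SD, n = 12) and 47.6 ± 7.56 CPM per kb in fed quadriceps (SD, n = 8), whereas Lpin2 averaged 0.736 ± 0.235 and 0.292 ± 0.095 CPM per kb in those groups.

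Lpin3 (chromosome 2: 160880670 to 160906002, plus strand), the third lipin, averaged 5.77 ± 1.74 CPM in fasted quadriceps (SD, n = 12) and 6.52 ± 1.73 CPM in fed quadriceps (SD, n = 8). Its log2 difference was -0.11 ± 0.19 (SE, edgeR adjusted p = 0.683), and fasted and fed libraries overlapped over most of their range. Lpin1, Lpin2 and Lpin3 thus differed in level and in what the test found, but the difference between their responses was not tested.

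**Figure D1:**
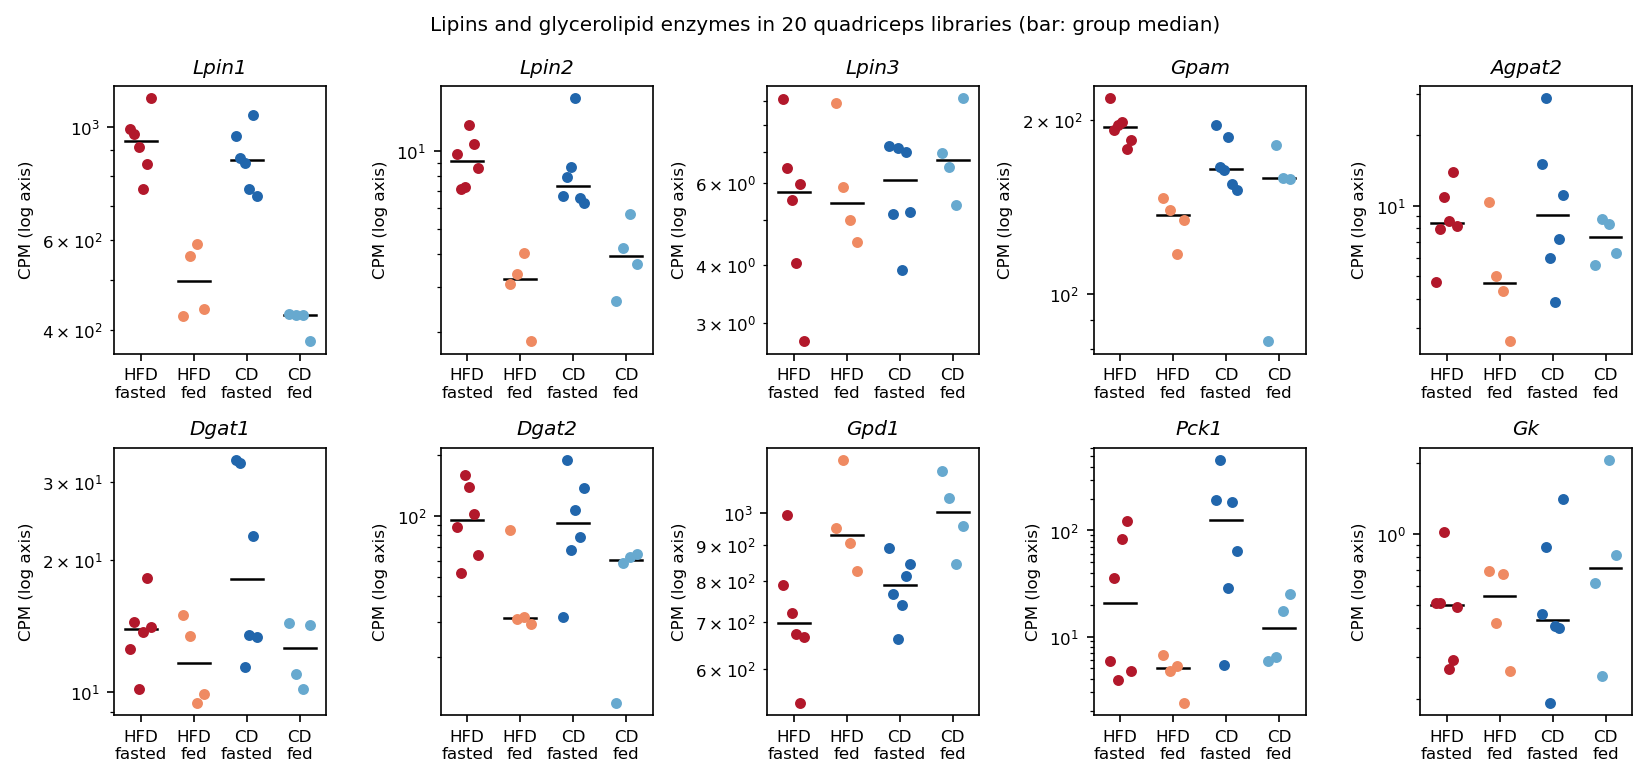
Level of each of the 10 genes in CPM (log axis) in the 20 quadriceps libraries, by juvenile diet and feeding; points are libraries and bars are group medians. Lpin1 and Lpin2 separate fasted from fed libraries in both diets, Pck1 spreads from 3.91 to 465 CPM among fasted libraries, and Gk stays at or below 2.06 CPM.

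The acyltransferases Gpam, Agpat2, Dgat1 and Dgat2 all had a positive fasting estimate in quadriceps, and that of Agpat2 did not pass. Differences between their responses were not tested. Gpam (chromosome 19: 55067268 to 55127238, minus strand) ranged from 178 to 219 CPM in HFD fasted quadriceps (median 195 CPM), while the HFD fed libraries had 147, 140, 117 and 135 CPM. In CD mice it ranged from 151 to 196 CPM in fasted quadriceps (median 165 CPM), and the fed libraries had 82.6, 181, 159 and 158 CPM. The difference between the diets' fasting responses did not pass (0.27 ± 0.20, log2, SE, edgeR unadjusted p = 0.177). Over both diets the log2 fold change was 0.44 ± 0.10 (SE, edgeR adjusted p = 9.07e-04).

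Agpat2 (chromosome 2: 26593057 to 26604417, minus strand), whose loss causes lipodystrophy, ranged from 3.89 to 28.7 CPM in fasted quadriceps and from 2.63 to 10.3 CPM in fed quadriceps. Its log2 difference of 0.78 ± 0.33 (SE) did not pass (edgeR adjusted p = 0.0717). Its exons share 64 bases with neighbouring genes, and whether reads were counted by strand is not given in the sources used here.

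Dgat2 (chromosome 7: 99153658 to 99182719, minus strand), the acyltransferase linked to newly made fatty acids, ranged from 31.6 to 189 CPM in fasted quadriceps (median 95.4 CPM) and from 11.9 to 85.5 CPM in fed quadriceps (median 45.1 CPM). The groups overlapped, and the log2 fold change was 1.18 ± 0.38 (SE, edgeR adjusted p = 0.0216). Much of its spread followed slow muscle fibres. By the correlation of deviations from group means over the 20 libraries, the genes most like Dgat2 among 8482 protein-coding genes were Nnt (r = 0.949), Myl2 (0.945) and Myoz2 (0.941), the last a pair of slow-fibre sarcomere genes.

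A slow-fibre sum of Myh7, Tnnt1, Tnni1, Tnnc1, Myl3 and Atp2a2, chosen after that likeness was seen, ranged from 25.04 to 1475 CPM of plain library size in fasted quadriceps (median 271 CPM) and from 32.8 to 2246 CPM in fed quadriceps (median 595 CPM). Within groups Dgat2 correlated with it at Pearson r = 0.924 (permutation p = 1e-05, the smallest that the 100000 resamples can give, adjusted p = 9e-05 over 9 members) and Spearman rho = 0.943 (permutation p = 1e-05). Because the sum was chosen from the likeness of Dgat2 in these same libraries, a high r was built in. Its p-values are therefore no independent test. Without the 2 libraries farthest from the median sum r was 0.884. At slow-fibre sums above 1000 CPM, Dgat2 was 159 and 139 CPM in HFD fasted libraries 3 and 4, against 85.5 CPM in HFD fed library 1 and 58.7, 62.7 and 64.9 CPM in CD fed libraries 2, 3 and 4. Below a sum of 60 CPM the states overlapped, with 51.9 CPM in HFD fasted library 2 and 31.6 CPM in CD fasted library 1, against 30.9, 31.6 and 29.1 CPM in HFD fed libraries 2, 3 and 4 and 11.9 CPM in CD fed library 1. With the slow-fibre sum as a covariate the fasting difference of Dgat2 was 1.38 on the log2 scale (edgeR adjusted p = 5.65e-09). That covariate too was chosen from the spread of Dgat2 itself.

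The other members followed the slow-fibre sum less closely in this measure. Lpin1 correlated with it in the opposite direction, at r = -0.575 (permutation p = 0.00889, adjusted p = 0.04) and rho = -0.624 (permutation p = 0.0046), and r was -0.67 without the 2 farthest libraries. The other 7 tested members had r between -0.393 and 0.518 and none passed the adjustment. The fasting difference of Lpin1 with this covariate was 1.01 (edgeR adjusted p = 3.00e-11).

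Dgat1 (chromosome 15: 76502015 to 76511953, minus strand), the other last-step acyltransferase, ranged from 10.1 to 33.8 CPM in fasted quadriceps (median 13.9 CPM) and from 9.44 to 14.9 CPM in fed quadriceps (median 12.2 CPM). The log2 fold change was 0.56 ± 0.19 (SE, edgeR adjusted p = 0.0216). The 3 highest values, 33.8, 33.1 and 22.6 CPM, were those of CD fasted libraries 1, 2 and 5. These and HFD fasted library 5 were the 4 quadriceps libraries with more than 200 CPM for the adipocyte sum of Adipoq, Cfd, Plin1 and Retn.

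That sum ranged from 8.68 to 552 CPM in fasted quadriceps (median 87.3 CPM) and from 16.1 to 136 CPM in fed quadriceps (median 47.4 CPM). All 10 adipocyte markers were detected in quadriceps, with Retn and Lep at 0 in 1 library each, and their summed level was 149 to 1114 CPM in fasted and 126 to 311 CPM in fed quadriceps. Within groups Dgat1 correlated with the adipocyte sum at r = 0.818 (permutation p = 3e-05, adjusted p = 0.00027 over 9 members) and rho = 0.8286 (permutation p = 0.0001), and r was 0.792 without the 2 libraries farthest from the median. With the sum as a covariate the fasting difference of Dgat1 was 0.23 (edgeR adjusted p = 0.173), and without the 4 libraries it was 0.15 (adjusted p = 0.434).

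Of the glycerol 3-phosphate suppliers, Gpd1 was the member with the most reads per length in muscle. Gpd1 (chromosome 15: 99717515 to 99725005, plus strand) averaged 256 ± 40.9 CPM per kb in fasted quadriceps (SD, n = 12) and 333 ± 45.0 CPM per kb in fed quadriceps (SD, n = 8). In CPM it ranged from 538 to 994 in fasted and from 828 to 1191 in fed quadriceps, so that the groups overlapped. It fell by 0.32 ± 0.09 on the log2 scale (SE, edgeR adjusted p = 0.00726). An antisense gene, Gm16537, shares 384 bases of its exons, and without strand their reads cannot be told apart.

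Pck1 (chromosome 2: 173153048 to 173159273, plus strand) had the widest spread. In HFD fasted quadriceps it ranged from 3.91 to 122 CPM with a median of 20.7 CPM, and the HFD fed libraries had 6.70, 4.74, 5.26 and 2.37 CPM. In CD fasted quadriceps it ranged from 5.4 to 465 CPM with a median of 125 CPM, and the CD fed libraries had 5.88, 6.36, 17.6 and 25.1 CPM. Fasted and fed libraries overlapped, and the log2 fold change was 3.40 ± 0.88 (SE, edgeR adjusted p = 0.00566).

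Pck1 moved with the adipocyte transcripts within groups, at r = 0.866 (permutation p = 9e-05, adjusted p = 0.000405 over 9 members) and rho = 0.8286 (permutation p = 0.00045), with r = 0.857 without the 2 farthest libraries. Its most similar genes were Cebpa (r = 0.942), Cdo1 (0.933) and Scd1 (0.931), each abundant in fat. With the adipocyte sum as a covariate the fasting difference was 1.30 (edgeR adjusted p = 0.0823), and without the 4 libraries above 200 CPM it was 1.91 (adjusted p = 0.0746). Agpat2 had r = 0.445 with the adipocyte sum (permutation p = 0.067, adjusted p = 0.201; rho = 0.314, permutation p = 0.204), and the other 6 members tested had r between -0.154 and 0.252 with adjusted p of 0.832 or more.

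**Figure D2:**
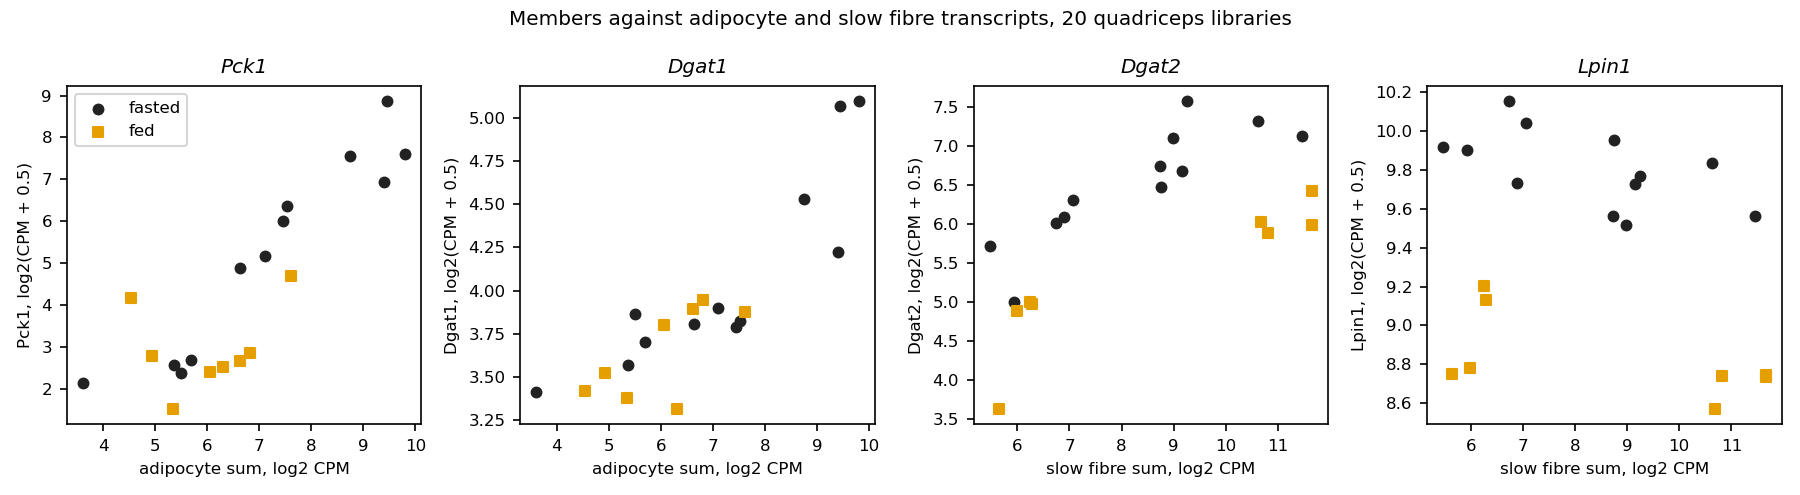
Pck1 and Dgat1 against the adipocyte sum, and Dgat2 and Lpin1 against the slow-fibre sum, in log2 CPM on both axes, for the 12 fasted (circles) and 8 fed (squares) quadriceps libraries. Pck1 and Dgat1 rise with adipocyte transcripts in fasted libraries, Dgat2 rises with slow-fibre transcripts in both states, and Lpin1 separates the states at every slow-fibre level.

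Gk (chromosome X: 85701937 to 85776819, minus strand) was near the detection limit of muscle. Its counts were 1 to 10 reads in fasted quadriceps and 2 to 18 reads in fed quadriceps, too few for the test, and a pseudogene and an antisense gene share 84 bases of its exons.

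Lpin1, Lpin2, Gpam, Dgat2 and Gpd1 kept their direction and stayed past the threshold with the adipocyte sum as a covariate, with adjusted p between 2.61e-09 and 0.0361, and without the 4 adipocyte-rich libraries, with adjusted p between 2.28e-08 and 0.0351. When all 39 libraries shared a single fit, whose common biological coefficient of variation was 0.5996 against 0.203 for quadriceps alone, Lpin2 and Pck1 passed. Lpin1 then had an adjusted p of 0.0914, Gpam 0.333, Dgat2 0.207, Gpd1 0.642 and Dgat1 0.483.

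**Figure D3:**
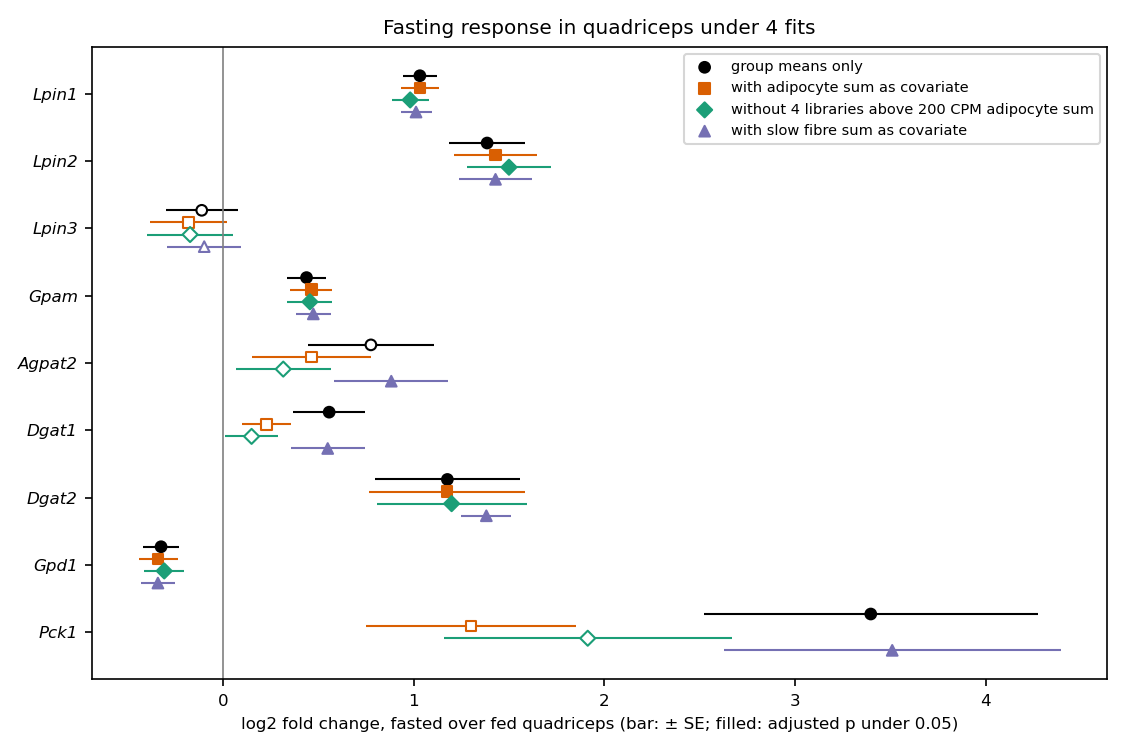
Log2 fold change of fasted over fed quadriceps for the 9 members tested, with its SE, in the fit of group means and in 3 alternatives; filled symbols have an adjusted p under 0.05. Lpin1, Lpin2, Gpam, Dgat2 and Gpd1 stay filled in all 4, while Dgat1 and Pck1 are open with the adipocyte sum as a covariate and without the 4 adipocyte-rich libraries.

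The promoters of Lpin1 and Pck1 are shown here. Both genes had more reads in fasted muscle, as had Lpin2 and Gpam, whose windows are not shown. Pck1 is the textbook gene of cAMP-driven transcription in fasting. RefSeq windows of 300 bases, from 250 before to 50 after a gene's start (GRCm38.p6), were held for 7 of the 10 members and not for Dgat1, Dgat2 and Gpd1. Each window was searched on both strands. The cAMP response element was looked for as its half-site TGACG and as the full element TGACGTCA, which contains the half-site. The other motifs looked for were the E-box with the letters CACGTG, the glucocorticoid receptor half-site with the letters AGAACA, the GC box with the letters GGGCGG, and the box whose name gives its letters, CCAAT. Capitals mark matches.
Lpin1, chr12:16610917-16611216, minus strand: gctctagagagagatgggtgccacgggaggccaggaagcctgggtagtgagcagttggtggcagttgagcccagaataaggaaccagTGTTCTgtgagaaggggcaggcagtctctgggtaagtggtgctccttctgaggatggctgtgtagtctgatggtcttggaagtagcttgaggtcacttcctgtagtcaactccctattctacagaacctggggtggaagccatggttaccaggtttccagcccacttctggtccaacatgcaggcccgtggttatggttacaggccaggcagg
Pck1, chr2:173152823-173153122, plus strand: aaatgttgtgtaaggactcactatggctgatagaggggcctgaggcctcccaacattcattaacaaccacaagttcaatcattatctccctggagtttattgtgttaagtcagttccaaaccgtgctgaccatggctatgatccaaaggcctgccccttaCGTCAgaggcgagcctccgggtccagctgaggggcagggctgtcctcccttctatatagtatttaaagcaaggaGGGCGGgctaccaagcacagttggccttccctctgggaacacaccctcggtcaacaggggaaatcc

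Counted from 1 at the 5′ end, the Lpin1 window had an AGAACA match on the opposite strand at bases 88 to 93. The Pck1 window had a TGACG match on the opposite strand at bases 161 to 165 and a GC box at bases 235 to 240. Of 32851 RefSeq windows of this length, 19% held the glucocorticoid half-site, 20.8% the cAMP half-site, 1.79% the full cAMP element, 7.15% an E-box, 37.4% a CCAAT box and 35.7% a GC box. Among the members not shown, AGAACA was also matched in windows of Lpin2, Lpin3 and Gk, and TGACG in windows of Lpin2, Gpam and Gk. The half-sites are common letters, and a match is a description of the window.

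By juvenile diet, the fasting responses of Lpin1 and Lpin2 passed in both diets, and that of Lpin3 in neither (-0.06 after HFD and -0.16 after CD on the log2 scale, edgeR adjusted p = 0.901 and 0.725). After juvenile HFD, 3 members rose (Lpin1 by 0.93, Lpin2 by 1.62 and Gpam by 0.58 on the log2 scale) and Gpd1 fell by 0.37. Of all genes tested 21.4% passed there. After juvenile CD, 4 members rose (Lpin1 by 1.13, Lpin2 by 1.15, Dgat1 by 0.86 and Pck1 by 3.6), where 22.4% of all genes passed. Of the 4 adipocyte-rich libraries 3 are CD fasted. After CD the log2 fold change with the adipocyte sum as a covariate was 0.27 for Dgat1 and 0.55 for Pck1, and without the 4 libraries it was 0.13 and 1.37. Both calls after CD were lost in those fits, by limma voom, without the filter on low counts and with all 39 libraries in a fit. The call of Gpd1 after HFD was lost in 14 of 20 fits that left out a library, that of Pck1 after CD in 7 of 20 and that of Dgat1 after CD in 4 of 20.

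For the difference between the diets' fasting responses no member passed, and none had an unadjusted p under 0.05. The edgeR test called 0 of 12213 genes (0%), of which 300 had an unadjusted p under 0.05, and DESeq2 called 2. The estimates were -0.20 ± 0.18 for Lpin1, 0.48 ± 0.40 for Lpin2 and 0.27 ± 0.20 for Gpam (log2, SE). Between juvenile diets, over both feeding states, 0 of 9 members passed, while 0.0246% of all genes did. Lpin1 was 0.18 ± 0.09 higher after HFD on the log2 scale, with an unadjusted p of 0.0446 and an edgeR adjusted p of 0.564, and was the only member with an unadjusted p under 0.05 in that comparison. DESeq2 and limma voom also called no member. Among fasted libraries alone 0 of 9 members passed, where 0% of all genes did. Dgat1 there was -0.64 ± 0.23 after HFD on the log2 scale, with an unadjusted p of 0.0108 and an edgeR adjusted p of 0.590. Among fed libraries alone 0 of 9 members passed, where 0.00819% of all genes did, and Lpin1 had the smallest unadjusted p of the members, 0.0447.

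Around the members, 25 of 31 other genes of the pathway had enough counts to test in quadriceps. Of these 7 rose and 8 fell, where 37.6% of all genes tested passed, 19.2% higher and 18.4% lower, and the median log2 fold change was -0.10. Among the acyltransferases Gpat3, the endoplasmic reticulum enzyme that performs the same step as Gpam, rose by 1.16 ± 0.16 and Agpat3 by 0.42 ± 0.10, while Agpat5 fell by 0.44 ± 0.10 and Agpat1 by 0.38 ± 0.08 (log2, SE). Mitochondrial PEPCK (Pck2) rose by 0.57 ± 0.17. Of the proteins that partition triglyceride into lipid droplets, Fitm2 rose by 0.31 ± 0.09 and Fitm1 fell by 0.41 ± 0.10. Ctdnep1, a phosphatase that acts on lipins, fell by 0.52 ± 0.09, and Plpp1, a phosphatidate phosphatase of the cell surface, by 0.36 ± 0.11. Of the enzymes that lead phosphatidate or diacylglycerol to phospholipids, Cds2 rose by 0.38 ± 0.08 and Pcyt1a by 0.40 ± 0.08, and Selenoi fell by 0.35 ± 0.13. All these adjusted p-values are from the same edgeR fit, and those of the genes said to rise or fall lie between 1.97e-06 and 0.0328. The genes most like Lpin1 within groups were Sra1 (r = 0.852), Wdsub1 (0.802) and Vps39 (0.784), and to Gpam 3425401B19Rik (0.823), Ank2 (0.801) and Colgalt1 (0.798), over 20 libraries.

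In eWAT the level of most members followed what else the library held. Among the 6 libraries that were not epididymis-rich, Pck1 ranged from 1113 to 5737 CPM (median 3446 CPM), against 36.7 to 1021 CPM in the 13 epididymis-rich libraries (median 87.4 CPM). The ranges did not overlap. The share of all genes that did the same was not counted, so this does not set Pck1 apart from other genes. Medians in these libraries were also higher for Dgat1 (184 against 27.4 CPM), Lpin1 (279 against 52.9 CPM), Agpat2 (203 against 41.8 CPM), Dgat2 (332 against 89.4 CPM), Gpd1 (273 against 78.5 CPM) and Gpam (81.3 against 37.4 CPM). Lpin3 (10.0 against 24.2 CPM), Lpin2 (14.0 against 25.8 CPM) and Gk (5.17 against 46.6 CPM) had the higher median in epididymis-rich libraries. These classes were set from the data, so the values are a description with no test.

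Some of these levels were highest in a single hepatocyte-rich library. HFD fasted library 4 had 142191 CPM of summed hepatocyte markers and 802 CPM of the adipocyte sum. It had the highest eWAT values of Pck1 (5737 CPM) and Lpin2 (161 CPM). Gk was 41.5 CPM there, against 2.14 to 13.3 CPM in the other 5 libraries that were not epididymis-rich. Those 5 include CD fasted library 1, at 34822 CPM of hepatocyte markers, where Lpin2 was 69.3 CPM. A link to hepatocyte transcripts was not tested. Dgat2 in the same classes differed by feeding and diet together. HFD fed libraries 2 and 3 had 3151 and 1331 CPM, and CD fasted libraries 1, 2 and 3 had 184, 301 and 166 CPM, at adipocyte sums between 19227 and 23096 CPM in all 5. These 5 hold no HFD fasted and no CD fed library, so among them diet and feeding cannot be told apart.

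**Figure D4:**
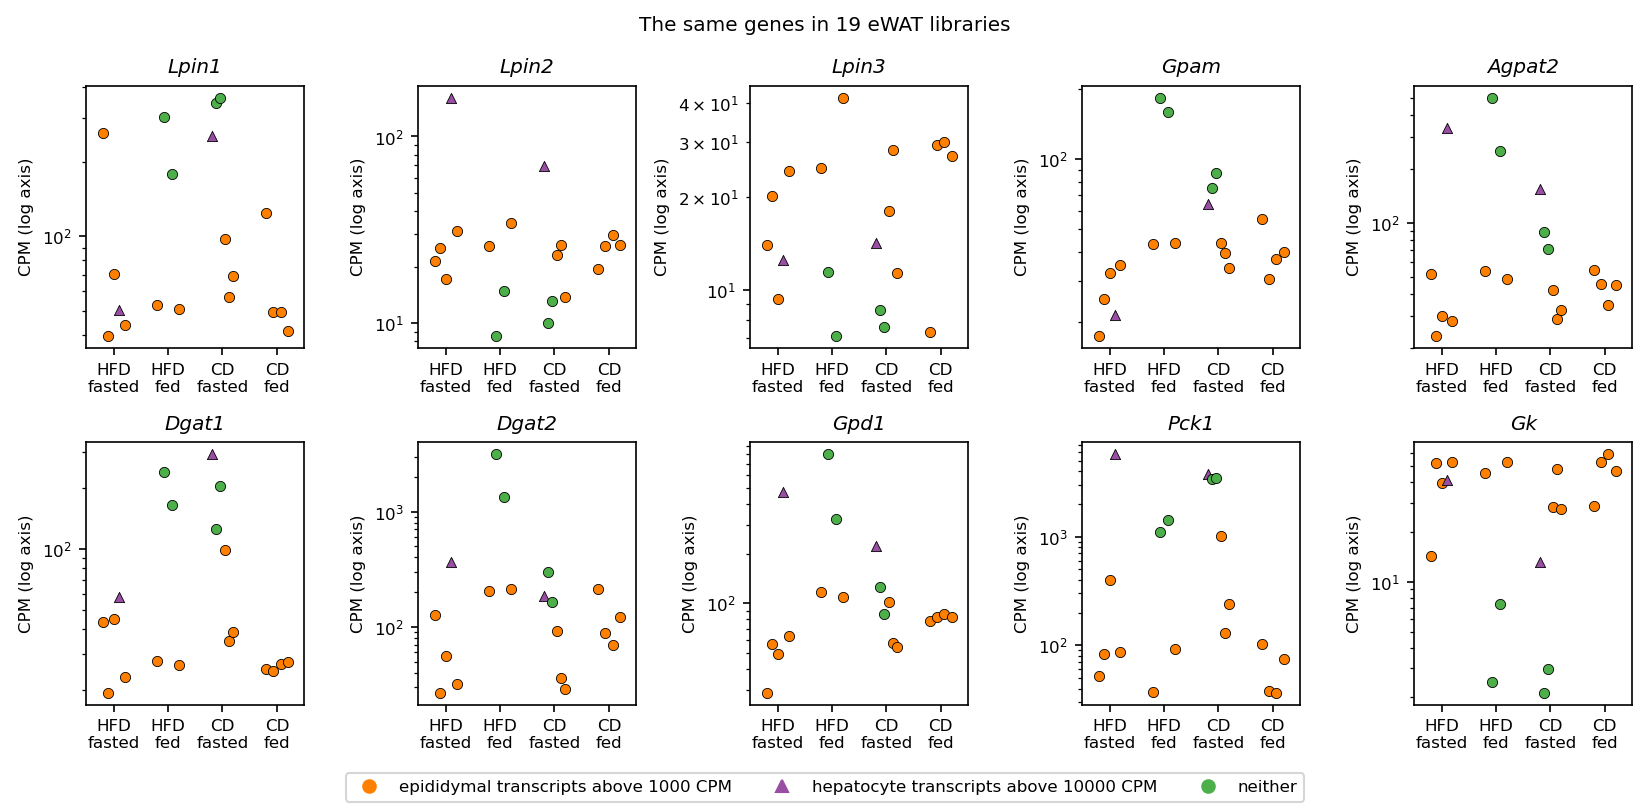
Level of each gene in CPM (log axis) in the 19 eWAT libraries by juvenile diet and feeding; colour and shape give the transcripts of other tissues. For Pck1, the 6 libraries that were not epididymis-rich lie at 1113 CPM or more and the 13 epididymis-rich libraries at 1021 CPM or less. Gk shows the opposite order apart from the hepatocyte-rich HFD fasted library 4. How many of all genes part in this way was not counted.

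With these libraries pooled, 0 of 10 members passed for fasting in eWAT by edgeR, and 0% of 16603 genes did, of which 1448 had an unadjusted p under 0.05. DESeq2 and limma voom also called no member. Unadjusted, 3 members had p under 0.05: Pck1 at 2.96 ± 1.05, Dgat2 at -1.61 ± 0.63 and Gpam at -0.76 ± 0.29 (log2, SE, each with edgeR adjusted p = 0.550). For juvenile diet in eWAT 0 of 10 members passed by edgeR, DESeq2 or voom, and Agpat2 (1.35 ± 0.58), Dgat2 (1.58 ± 0.65) and Gpd1 (1.17 ± 0.53) had unadjusted p under 0.05 (each adjusted p = 1.00).

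Set against the adipocyte transcripts of the same library, Pck1 was higher and Dgat2 lower in most fasted eWAT libraries. This comparison was chosen after the data were seen. Gene and sum were put on the same scale for it. In HFD fasted library 4 the adipocyte sum was 907 CPM when scaled by TMM, against 802 CPM of plain library size. Pck1 as a percentage of the adipocyte sum was 17.97, 17.5, 16.9, 633 and 12.5% in HFD fasted libraries 1 to 5, against 3.99, 7.71, 9.90 and 7.35% in the HFD fed libraries. It ranged from 14.2 to 29.0% in CD fasted libraries, against 8.22, 6.53, 4.30 and 10.4% in the CD fed libraries. Every fasted library lay above every fed library, in epididymis-rich and other libraries alike. Of 13135 genes with a read in every eWAT library, 12 (0.0914%) did so.

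The mean log2 ratio of Pck1 was 1.996 higher in fasted eWAT over the diets (two-sided exact permutation of feeding within diet, p = 3.78e-05, the smallest that 26460 arrangements can give, adjusted p = 0.000378 over 10 members). With each of the 10 adipocyte markers alone as the denominator the difference was 1.40 to 4.61, with exact permutation p of 0.00412 or less, and 6 of the 10 separated all fasted from all fed libraries. Without the hepatocyte-rich and testis-rich libraries the difference was 1.40 (exact permutation p = 0.000227, the smallest that arrangement of 16 libraries can give).

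Dgat2 as a percentage of the adipocyte sum was 43.4, 5.64, 2.40, 40.1 and 4.59% in HFD fasted libraries 1 to 5, against 22.3, 21.8, 9.24 and 16.8% in the HFD fed libraries. It ranged from 1.2 to 3.92% in CD fasted libraries, against 17.1, 15.5, 8.15 and 17.1% in the CD fed libraries. The 2 high fasted values were the testis-rich library 1 and the hepatocyte-rich library 4. With all 19 libraries the mean log2 ratio was -1.71 (exact permutation p = 0.0104, adjusted p = 0.052 over 10 members). Without the 3 hepatocyte-rich or testis-rich libraries it was -2.33 (exact permutation p = 0.000227, adjusted p = 0.00113), and all 8 fasted libraries lay below all 8 fed libraries, as for 21 of 13135 genes (0.16%). All 3 libraries left out are fasted, and 2 of them are those with the high values. Leaving them out, with a limit of 5000 CPM for testis transcripts, was not planned, so this smaller p is a description. In those 16 libraries 9 of the 10 markers alone gave the same separation, and Lep did not, with a difference of -0.26.

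The other 8 members did not pass in this comparison. Lpin1 differed by 0.30 (exact permutation p = 0.709) and ranged from 1.95 to 89.7% of the adipocyte sum in fasted and from 1.24 to 10.0% in fed eWAT. A ratio to the adipocyte sum can also hold reads of other cells, whose levels of the members were not measured here. In the 13 epididymis-rich libraries, pooled over groups, the level of Dgat2 correlated with the adipocyte sum at r = 0.104 (permutation p = 0.737) and rho = 0.269 (permutation p = 0.373).

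**Figure D5:**
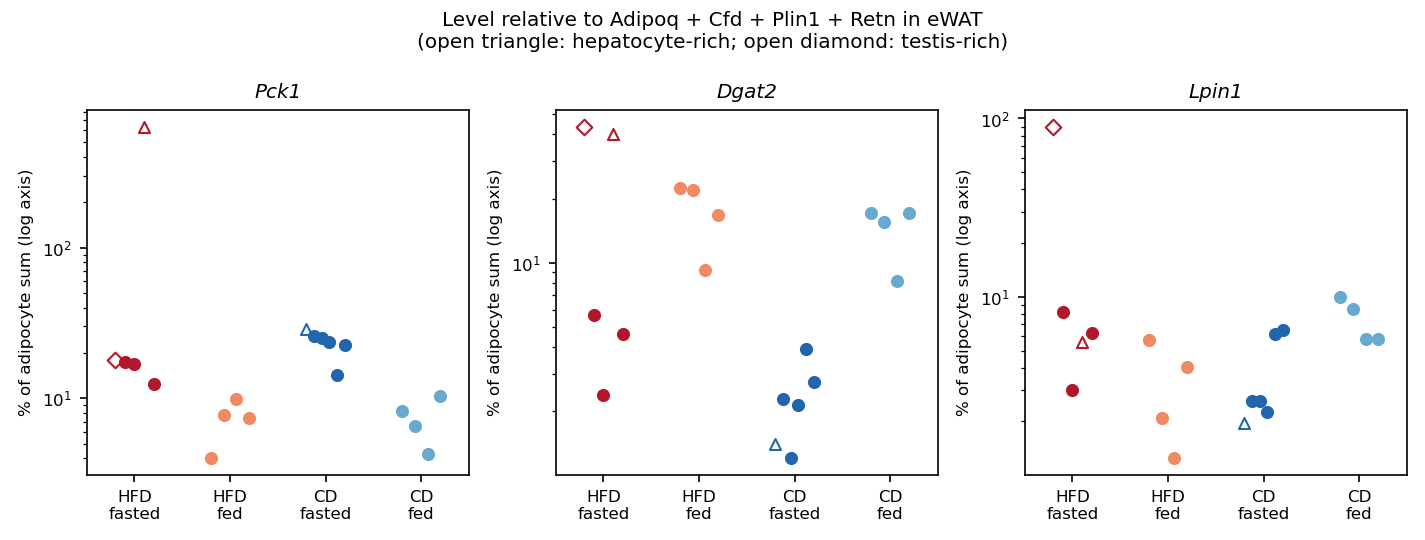
Pck1, Dgat2 and Lpin1 as a percentage of the adipocyte sum (log axis) in each eWAT library, by juvenile diet and feeding; open triangles are hepatocyte-rich and the open diamond is testis-rich. Every fasted library is above every fed library for Pck1, and for Dgat2 the fasted libraries drawn as filled circles are below every fed library.

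The fasting response of eWAT differed between juvenile diets for Gpam and Dgat1, where 8.41% of all genes passed, 5.82% with a lower value. The differences, HFD response minus CD response, were -2.49 ± 0.59 for Gpam and -3.92 ± 0.97 for Dgat1 (log2, SE, edgeR adjusted p = 0.0366 each). The adipocyte sum had the same pattern, at 495 to 4257 CPM in HFD fasted, 1374 to 22659 CPM in HFD fed, 1415 to 23096 CPM in CD fasted and 961 to 2201 CPM in CD fed eWAT. With that sum as a covariate the differences were -0.33 for Gpam and 0.17 for Dgat1 (adjusted p = 0.996 and 0.998), and among epididymis-rich libraries -0.59 and -0.86 (adjusted p = 0.591 and 0.640). Leaving out a single library gave -2.76 to -2.09 for Gpam and -4.25 to -3.24 for Dgat1, and each lost its call in 10 of 19 such fits. In the pathway list 3 of 29 genes tested passed in the same direction: Mogat1 at -5.41, Fitm2 at -4.35 and Chpt1 at -4.34.

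Within the 13 epididymis-rich libraries, the level of Pck1 correlated with the adipocyte sum at r = 0.804 (permutation p = 0.00122, adjusted p = 0.0122 over 10 members) and rho = 0.676 (permutation p = 0.0137, adjusted p = 0.0726). Unlike in quadriceps, fasted and fed libraries of both diets were pooled here, so differences between groups enter these values. Without the 2 libraries farthest from the median r was 0.657 (permutation p = 0.0283, adjusted p = 0.141), so the adjusted Pearson call rests on those libraries. By Pearson no other member passed, with or without them. By Spearman none passed over the 13 libraries, and without those 2 only Lpin1 did (rho = 0.845, permutation p = 0.00202, adjusted p = 0.0202), at r = 0.633 (permutation p = 0.0447, adjusted p = 0.149).

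Between tissues, 7 members were higher and 3 lower in eWAT than in quadriceps, where 83.0% of all genes passed, 54.9% higher and 28.1% lower, with a median log2 difference of 0.64. The members lower in eWAT were those most abundant in muscle: Gpd1 at -2.61 ± 0.28, Lpin1 at -2.48 ± 0.27 and Gpam at -1.65 ± 0.16 (log2, SE, edgeR adjusted p from 2.81e-11 to 5.19e-10). Those higher were Gk (5.62 ± 0.43), Pck1 (4.48 ± 0.70), Agpat2 (3.45 ± 0.37), Lpin2 (2.36 ± 0.27), Dgat1 (2.11 ± 0.26), Dgat2 (1.69 ± 0.37) and Lpin3 (1.59 ± 0.21), with edgeR adjusted p of 1.09e-04 or less. On plain library sizes all 10 kept their direction, with Gpam at -0.38 (adjusted p = 0.0324). Epididymal and hepatocyte transcripts stood at up to 68151 and 142191 CPM in eWAT, against at most 1.21 and 621 CPM in quadriceps, and their part in these differences was not tested apart from the fit with epididymis-rich eWAT alone, where Dgat2 was 0.36 (adjusted p = 0.259) and the other 9 passed. By limma voom Dgat2 was 0.54 (adjusted p = 0.0663).

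The order of median levels per length was taken in the 6 eWAT libraries that were not epididymis-rich. It was Pck1 at 1005 CPM per kb, Dgat2 at 108, Agpat2 at 95.1, Gpd1 at 92.2, Dgat1 at 60.3, Lpin1 at 28.8, Gpam at 12.2, Lpin3 at 2.72, Lpin2 at 1.14 and Gk at 0.667 CPM per kb. In quadriceps it was Gpd1 at 283, Lpin1 at 78.2, Gpam at 24.7, Dgat2 at 21.5, Dgat1 at 4.45, Agpat2 at 3.80, Pck1 at 3.54, Lpin3 at 1.60, Lpin2 at 0.545 and Gk at 0.064 CPM per kb. In those eWAT libraries the ranges over libraries overlap between all neighbours in the order. In quadriceps the range of Gpd1 lay above that of Lpin1 and the range of Lpin1 above that of Gpam, and the ranges of all later neighbours overlap, as do those of Lpin1 and Dgat2.

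The fasting response differed between tissues for Gpam and Dgat2, where 2.73% of all genes passed. The eWAT response minus the quadriceps response was -1.15 ± 0.31 for Gpam and -2.72 ± 0.74 for Dgat2 (log2, SE, edgeR adjusted p = 0.0353 and 0.0362). Among epididymis-rich eWAT libraries alone the differences were -0.78 for Gpam (adjusted p = 0.0161) and -2.66 for Dgat2 (adjusted p = 0.00610). Both calls were lost without the filter on low counts (adjusted p = 0.0674 and 0.0711) and without the 4 adipocyte-rich quadriceps libraries (adjusted p = 0.101 and 0.0772), where the estimates were -1.15 and -2.73. Lpin1 and Lpin2 had estimates of -0.52 ± 0.51 and -0.68 ± 0.52 and did not pass.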

How the data were processed

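Per the labels' protocols, poly-A RNA was made into Ion Torrent libraries. The tools named in the submitters' processing notes are HTSeq 0.6.0, Bowtie2 2.2.5 and TopHat2 2.1.0, with build GRCm38. Neither the strand setting nor the annotation is given in the sources used here. The authors deposited raw read counts per Ensembl gene for each of 39 libraries, 6199586 to 14993394 counted reads (18.44 to 39.91% of reads listed; the other rows, such as reads in no feature, at 33.03 to 44.59%, were left out).

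Gene names and positions came from GENCODE M21, which matched 44585 of 45232 identifiers. Counts were fitted with edgeR 4.0.16 (R 4.3.3; TMM, low-count filter, robust quasi-likelihood, a mean per group) for quadriceps (12213 genes), eWAT (16603) and both (17083), with p-values adjusted over all genes; SE is the log2 fold change over the root of F. In simulated counts a random sample of genes was changed. For quadriceps fasting (12058 genes tested), 90.6% of the 2-fold and 99% of the 4-fold changes were recovered. For eWAT fasting (16198 genes tested) it was 15.3% and 53.2%. Each gene was drawn on its own, so shifts in fibre, fat or epididymal content shared by many genes were not modelled. Alternatives were DESeq2 1.42.0, limma voom 3.58.1 and those listed in the closing section. Correlations used log2(CPM + 0.5) and 100000 permutations, within groups for quadriceps.

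Members and lists were chosen with earlier results of these data known. Genes named were all members, up to 6 pathway genes with the smallest p per direction, and the 3 protein-coding genes (mean log2 CPM of at least 2) most correlated with Lpin1, Gpam, Pck1 and Dgat2. Slow-fibre genes, the 200 CPM adipocyte limit and the ratios to adipocyte transcripts were chosen after the values were seen. No libraries held identical counts.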

Additional observations from a re-analysis of the deposited data

Results flagged for a closer look

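Dixon's test was run on CPM in 80 sets, each a gene in a group of 4 to 6 libraries. Chance gives about 1 in 20 where values are normal, which was not checked, and the sets share libraries. In all, 13 values stood apart from the rest of their group. HFD fasted eWAT library 4, the hepatocyte-rich library, held 4 of them: Agpat2 at 339 CPM (next 51.7), Gpd1 at 472 CPM (next 63.8), Lpin2 at 161 CPM (next 31.0) and Pck1 at 5737 CPM (next 398). The testis-rich HFD fasted eWAT library 1 had Lpin1 at 261 CPM (next 70.3), and the hepatocyte-rich CD fasted eWAT library 1 had Lpin2 at 69.3 CPM (next 26.3). CD fed eWAT library 1, at 2456 CPM of testis transcripts, had Lpin1 at 125 CPM (next 49.5) and Lpin3 at 7.31 CPM (next 27.1).

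In quadriceps, Dgat2 was 85.5 CPM in HFD fed library 1 (next 31.6) and 11.9 CPM in CD fed library 1 (next 58.7). Their slow-fibre sums were 2084 and 32.8 CPM, the highest of the HFD fed and the lowest of the CD fed libraries. Lpin1 was 380 CPM in CD fed library 4 (next 427), Lpin2 was 16.0 CPM in CD fasted library 4 (next 8.67), and Gk was 1.01 CPM in HFD fasted library 3 (next 0.511), a count of 7 reads.

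Effects that differed between groups by their own test were those of Gpam (-2.49) and Dgat1 (-3.92) for the fasting response after HFD minus that after CD in eWAT, and of Gpam (-1.15) and Dgat2 (-2.72) for the fasting response of eWAT minus that of quadriceps, on the log2 scale.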

How the results depend on the processing

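No paired analysis was possible because the labels give no replicate numbers that link libraries. In quadriceps fasting 7 members passed, and 7 to 8 when each library was left out in turn; after HFD 4 (3 to 4) and after CD 4 (2 to 4). The juvenile diet contrasts and the interaction in quadriceps stayed at 0 under all alternatives run. After CD the count was 2 without the low-count filter, with voom, with the adipocyte sum as covariate and without the 4 adipocyte-rich libraries, and 7 with the slow-fibre sum as covariate. With all 39 libraries in a fit, quadriceps counts were 2 for fasting, 0 after HFD and 0 after CD, and eWAT counts 3 for fasting after HFD, 2 for fasting after CD, 2 for diet in fasted, 3 for diet in fed and 4 for the interaction. In eWAT, DESeq2 called 2 members for fasting after HFD, 2 after CD and 1 for diet in fed libraries, voom called 1 for fasting after CD, and leaving out libraries gave 0 to 1 for fasting after HFD. The eWAT interaction count of 2 became 0 without the filter, with voom, with the adipocyte covariate and in epididymis-rich libraries alone, 6 without hepatocyte-rich libraries, and 0 to 6 when a library was left out; Dgat1 turned to 0.17 with the adipocyte covariate. All 10 members passed between tissues whichever library was left out. The fasting response of eWAT minus quadriceps had 2 calls, 0 to 2 with a library left out, 0 without the filter, 4 without hepatocyte-rich libraries, 1 on plain library sizes and 0 without the 4 adipocyte-rich quadriceps libraries. Of members correlated with the adipocyte sum in epididymis-rich libraries, 1 became 0 by Pearson and 0 became 1 (Lpin1) by Spearman without the 2 farthest libraries; of ratios to the adipocyte sum, 1 became 2 without hepatocyte-rich and testis-rich libraries. The cause was not tested. DESeq2 gave no adjusted p for 6 member tests, which were left out. Depth limits Gk in quadriceps, and the spread between eWAT libraries (common coefficient of variation 0.779) limits every pooled eWAT test.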
